A study of Mus musculus with 12 samples.

Results

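The 91 genes described here are the mouse genes whose names begin with Rpl or Rps, of 41128 genes measured by RNA sequencing, with named pseudogenes, the Rps6k kinases and Rps19bp1 left out. They were chosen by name, not by level. Among them, 77 are the genes of the cytoplasmic ribosome (core genes), 46 for the large subunit and 31 for the small subunit. The other 14 are paralogs, retrotransposed copies and other genes with similar names. In total 86 of the 91, including all 77 core genes, reached an adjusted TPM of 1 in 3 or more of the 12 libraries.

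All animals were C57BL/6J mice of 6 to 8 weeks with no treatment or transgene named. Per the labels, spleens gave CD43- resting B cells and CD4+CD62L+ naive T cells, and each cell type was taken from females and from males, with 3 libraries in each of the 4 groups. The T cells were also sorted as CD62L high, CD44 low and CD25-, and how the B cells were purified beyond the lack of CD43 is not given in the sources used here. The replicates are described by the series as pools, so the spread between them is a spread between pools. RNA was depleted of ribosomal RNA before strand-specific library preparation. Some label fields name genomic DNA, and the values were read as RNA expression. In each group a bulk sample cannot tell fewer cells of a type apart from less RNA per cell.

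The ribosome translates messenger RNA into protein. Its small subunit decodes the message and its large subunit forms the peptide bonds, and each core protein is a structural part of one of them. Most of these mRNAs start with a C followed by an unbroken run of pyrimidines (a 5′ terminal oligopyrimidine tract), through which mTOR signaling controls their translation, and naive lymphocytes are small cells that raise ribosome production when they are activated.

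Values are adjusted TPM, a length-corrected share of transcripts that the authors rescaled between libraries in a way not given in the sources used here. Totals per library ran from 561020 to 1453940, read depth is unknown, and the median ratio of the deposited upper to lower bound was 1.03 over the core genes. In male T cell 6 and female B cell 1, the 2 highest genes together held 45.1% and 39.8% of the total, of which the gene Yam1 held 37.4% and 32.2%. The summed B cell markers were between 2610 and 2972 in B cells and between 0.90 and 5.34 in T cells, and the summed T cell markers between 1017 and 1194 in T cells and between 9.76 and 14.1 in B cells, so both cell types carried the markers of their labels. Summed monocyte markers were between 8.95 and 13.1 in B cells and between 1.06 and 4.55 in T cells, and summed erythroid markers reached 304.0 in B cells and 64.8 in T cells; their part in the results was not tested.

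Sequences around the annotated starts were searched for runs of pyrimidines. RefSeq promoters (build GRCm38.p6) were matched for 57 of the 77 core genes, in 67 windows. A run of at least 10 C or T bases on the sense strand, from 40 bases before to 50 bases after the annotated start, was present in 67.2% of these windows and in 16.0% of all 32851 promoters. The letters CTCTTT were present on the sense strand of the same 90 bases in 32.8% and 3.53%, and CTTTCC in 29.9% and 4.18%; both can overlap each other and the run. Over the whole 300 bases and both strands, CCGGAAG, the core of many ETS factor sites, was present in 37.3% and 8.86%, AAGATGGC, found in YY1 sites, in 10.4% and 2.75%, and TATAAA in 8.96% and 13.6%. These are matches of letters, not measured sites.

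The stretches below, each 30 bases 5′ to 3′ with the longest C or T run in capitals, belong to the stalk genes Rplp0 and Rplp2, to the core genes described further on for the largest departures from the family that have an entry, and to Rps24 and Rpl13a, the members with the highest levels.
Rplp0: gaccgcctggTTCTCCTataaaaggcacac
Rplp2: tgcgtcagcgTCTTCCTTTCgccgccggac
Rpl12: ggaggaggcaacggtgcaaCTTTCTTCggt
Rpl5: cctacagccaCTCTTTCTCacgtcgcttgc
Rps16: gtaaagcccgCTTCTgtcgtgacgtagcac
Rps28: gtcccgaggaTTCCTgggtaccgcgtgcgg
Rpl28: gcctctcgtgTCTCTCTTTCCgtctccggc
Rps12: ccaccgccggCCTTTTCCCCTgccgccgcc
Rpl41: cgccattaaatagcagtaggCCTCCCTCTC
Rpl6: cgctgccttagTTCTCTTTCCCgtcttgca
Rpl4: aggagcgtggCCTTCTCCTCTCCCCgtcat
Rps24: cagtgagcggTCCTCTTTTCCTCCTCTCCa
Rpl13a: tgcgacaagaCCTCCTCCTTTCCCaggcgg
The stretch of Rplp0 lies on the plus strand at chr5:115559468-115559497, that of Rplp2 on the plus strand at chr7:141447636-141447665, that of Rpl12 on the plus strand at chr2:32961732-32961761 and that of Rpl5 on the plus strand at chr5:107900498-107900527. Rpl28 is at chr7:4792952-4792981 on the plus strand, Rps12 at chr10:23787182-23787211 on the minus strand, Rpl6 at chr5:121204521-121204550 on the plus strand and Rpl4 at chr9:64173403-64173432 on the plus strand. Rps16 is at chr7:28350668-28350697 on the plus strand, Rps28 at chr17:33824564-33824593 on the minus strand and Rpl41 at chr10:128549119-128549148 on the minus strand. Rps24 is at chr14:24490706-24490735 on the plus strand and Rpl13a at chr7:45128724-45128753 on the minus strand. Rps3a1, the next in level after Rps24 and Rpl13a, is not shown, and its longest run had 6 bases. Within the searched bases of the genes shown, the run was longest in Rps24, with 19 bases, followed by Rpl4 with 15 and Rpl13a with 14. The run had 11 bases in Rpl28, Rps12 and Rpl6. It had 10 bases in Rplp2, 9 in Rpl5, 8 in Rpl12, 7 in Rplp0 and 5 in Rps16 and Rps28. In Rpl41 it had at least 10 bases, because it reached the end of the searched bases. From the annotated start (negative before it), the run began at -37 in Rps24, -21 in Rps28, -20 in Rpl5 and -11 in Rps16. It began at -5 in Rplp2, -3 in Rpl28, 2 in Rpl13a, 8 in Rps12 and 11 in Rplp0. In Rpl4, Rpl6, Rpl12 and Rpl41 it began at 26, 31, 39 and 40. Whether any run begins the mRNA was not tested.

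Ribosomal protein mRNA made up more of the signal in naive T cells than in resting B cells. The summed adjusted TPM of the 91 genes was lowest at 53480, had a median of 63029 and was highest at 75270 in the 6 B cell libraries. In the 6 T cell libraries it was lowest at 98873, had a median of 121049 and was highest at 136916. The ranges did not overlap, and the mean in T cells was 1.90 times that in B cells. As a share of the protein-coding signal, the members took 12.5% to 16.9% in B cells and 20.8% to 26.4% in T cells. As a share of the whole signal they took 5.35% to 11.1% in B cells and 8.02% to 15.1% in T cells, so on that scale the lowest T cell library, male T cell 6, lay within the B cell range. The ratio of sums was 1.45 after every library was rescaled to a total of 1000000 and 1.56 after rescaling to the protein-coding total. No test was made on these sums.

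**Figure D1:**
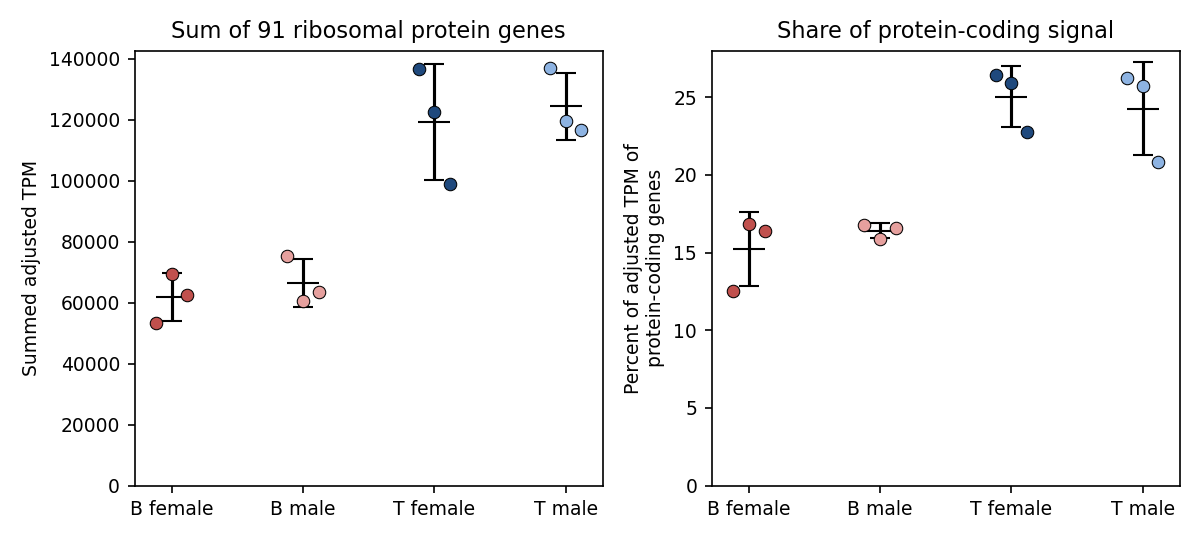
Sum of the adjusted TPM of the 91 ribosomal protein genes (left) and the same sum as a percent of the adjusted TPM of protein-coding genes (right) in each library; points are libraries, horizontal marks are group means and bars are SD (n = 3). All 6 T cell libraries lie above all 6 B cell libraries in both panels, from 98873 upward against at most 75270 on the left.

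All 77 core genes passed the test for higher levels in T cells, in a comparison where most genes differ. The limma fit with Benjamini-Hochberg adjustment called 73% of the 12520 tested genes at an adjusted p under 0.05, 41.6% toward T cells and 31.4% toward B cells. Of the 86 members tested, 84 were called, 83 higher in T cells and 1 higher in B cells. The T minus B difference of the core genes on the log2(adjusted TPM + 1) scale ran from 0.53 to 1.39 with a median of 0.91, beside a median of 0.09 over all tested genes. It was 0.83 in the median for the large subunit and 0.98 for the small subunit. In 74 of the 77 core genes every T cell library lay above every B cell library, which held for 29.7% of tested genes, and the ranges overlapped in the others, among them Rps12 and Rpl41. After rescaling every library to a total of 1000000, all 77 core genes were still higher in T cells, but 33 of them passed the threshold. The B minus T median moved with that rescaling from -0.91 to -0.52 for the core genes and from -0.09 to 0.26 for all tested genes, so the core median relative to all genes was -0.82 before and -0.79 after it.

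**Figure D2:**
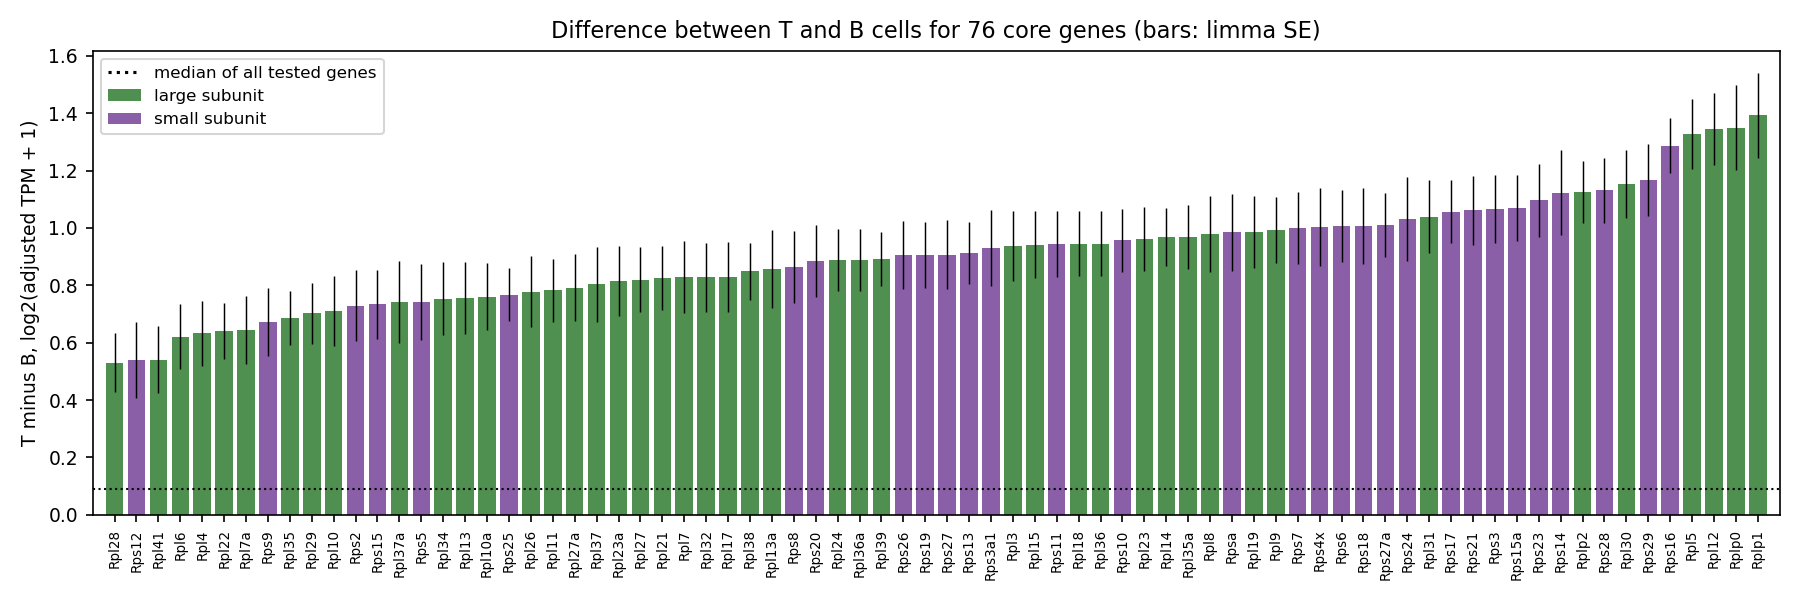
T minus B difference in log2(adjusted TPM + 1) for 76 of the 77 core genes, sorted, with large subunit genes in green and small subunit genes in purple; bars are the limma SE and the dotted line is the median of the 12520 tested genes, 0.09. Every gene shown lies above that line, from Rpl28 at 0.53 to Rplp1 at 1.39.

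The core genes kept nearly the same order of levels in both cell types. Mean levels ran from 86.2 to 2070 in B cells, with a median of 790, and from 210.8 to 4219 in T cells, with a median of 1479. Across the 77 genes the Spearman correlation of mean levels in B and T cells was 0.954, a description over genes that share libraries and gene length. The rank correlation of the mean level with the coding length was 0.37, and with the T minus B difference it was 0.32. Rps24 (chromosome 14, 24487125 to 24496959 in GRCm38, plus strand), a small subunit protein, had the highest level. It ran from 1845 to 2649 in B cells around a median of 1972, and from 3425 to 4628 in T cells around a median of 4394. Rpl13a, a large subunit protein, followed with medians of 1776 in B cells against 3181 in T cells, then Rps3a1 with 1475 and 2955.

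Rps16, a small subunit protein near the decoding site, stood apart at the low end. Its adjusted TPM ran from 74.3 to 111.8 in B cells (median 83.5) and from 176.1 to 239.9 in T cells (median 214.0). The next lowest core gene, Rpl29, had medians of 329.9 in B cells against 534.6 in T cells, so the highest T cell library of Rps16 lay below the lowest B cell library of Rpl29, 274.5. The longest coding transcript annotated for Rps16 has 1109 bases, of which 438 are coding, and the part of transcript length in its low value was not tested. Rpl37 and Rpl24, both of the large subunit, followed with medians of 354.3 and 357.5 in B cells, against 623.5 and 658.9 in T cells.

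**Figure D3:**
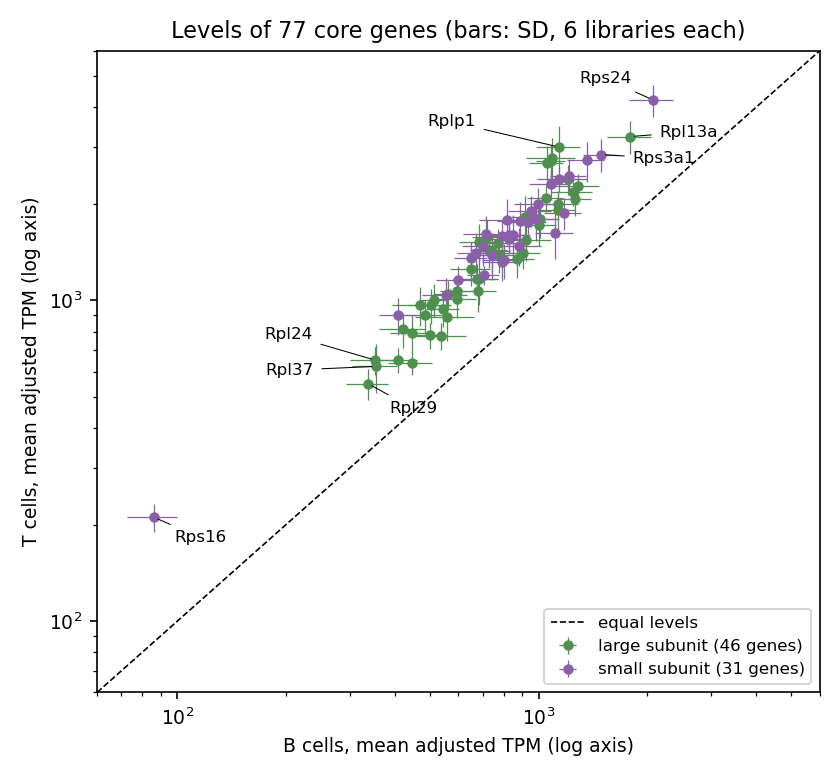
Mean adjusted TPM of the 77 core genes in T cells (y axis, log scale) against B cells (x axis, log scale), with SD bars over 6 libraries in each direction; the dashed line marks equal levels. Every gene lies above the line, Rps24 is highest and Rps16 lies alone at 86.2 and 210.8.

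Which members depart from the family was asked by centring every library on its mean log2 level of the core genes, which removes the scaling between libraries. In this fit 33 of 86 members were called, 20 toward B cells and 13 toward T cells. The background on this scale is 89.5% of tested genes, 81.8% toward B cells and 7.79% toward T cells, and the members' share of calls lay below it, with the core genes centred by the fit itself. Same-numbered female and male libraries deviated together in T cells, and with their log2 values averaged (3 B against 3 T) 24 of the 33 calls were kept, 15 toward B cells and 9 toward T cells. Of the 77 core genes 30 were called. In relative level, 9 core genes had every T cell library above every B cell library, beside 5.97% of tested genes, and 17 had the reverse, beside 69.6%.

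The mRNAs of the ribosomal stalk proteins, and of Rpl12 at its base, were on the T cell side. Rpl12 was named for the size of its departure, not as part of the stalk. The stalk is the flexible arm of the large subunit that recruits elongation factors: Rplp0 anchors pairs of Rplp1 and Rplp2, and Rpl12 sits at its base. Rplp1 ran from 924.5 to 1363 in B cells (median 1090) and from 2253 to 3521 in T cells (median 3006), a T over B ratio of means of 2.64. Relative to the family mean on the log2 scale, it was between 0.54 and 0.73 in B cells and between 0.97 and 1.15 in T cells, a difference of 0.49 (SE 0.07, adjusted p = 1.4e-05). Rplp0 ran from 821.6 to 1311 (median 1067) in B cells and from 2135 to 3285 (median 2800) in T cells, and its relative difference was 0.44 (SE 0.07, adjusted p = 4.3e-05).

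Rpl12 ran from 865.3 to 1194 in B cells (median 1047) and from 2186 to 3105 in T cells (median 2752), with a relative difference of 0.44 (SE 0.06, adjusted p = 1.9e-05). For Rplp2 the medians were 708.6 in B cells against 1535 in T cells, and the relative difference was smaller, 0.22 (SE 0.07, adjusted p = 0.0070). All 4 genes had separate ranges of relative level, with every T cell library above every B cell library. The call of Rplp2 was lost with the libraries of either sex alone.

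Rpl5, which binds the 5S ribosomal RNA together with Rpl11, moved with the stalk. It ran from 978.7 to 1241 in B cells (median 1072) and from 2242 to 3062 in T cells (median 2766), and its relative difference was 0.42 (SE 0.06, adjusted p = 2.6e-05). Rpl11 was not called, with a relative difference of -0.12 (adjusted p = 0.070). Transcripts of other genes that match the Rpl5 coding sequence at 95% identity or more summed to 11.0% of its level.

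Among the small subunit genes on the T cell side, Rps16 had a relative difference of 0.38 (SE 0.09, adjusted p = 8.7e-04), with ranges that overlapped between -2.90 and -2.86. Rps29 had 0.26 (adjusted p = 0.0099) and Rps28 had 0.23 (adjusted p = 0.0058), and the large subunit gene Rpl30 had 0.25 (adjusted p = 0.0059). Within females alone the calls of Rps16, Rps28 and Rpl30 were lost, and within males alone those of Rps29 and Rpl30.

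On the B cell side the core genes with the largest departures were Rpl28, Rps12, Rpl41, Rpl6 and Rpl4. Rpl28, a large subunit protein that budding yeast lacks, ran from 365.3 to 520.1 in B cells (median 430.9) and from 554.2 to 705.4 in T cells (median 634.7). Its level was therefore higher in T cells, but relative to the family it was lower by a log2 value of -0.38 (SE 0.07, adjusted p = 1.2e-04).

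Rps12, a small subunit protein, ran from 964.5 to 1338 in B cells (median 1095) and from 1305 to 1999 in T cells (median 1549), and the ranges overlapped. Its relative difference was -0.37 (SE 0.08, adjusted p = 5.6e-04). Rpl41, the smallest of the ribosomal proteins, had medians of 505.9 and 774.1 and a relative difference of -0.37 (SE 0.06, adjusted p = 9.3e-05), and a near-identical copy was at 20.7% of its level. Rpl6, a large subunit protein, and Rpl4, whose loop reaches into the exit tunnel for the new peptide, had relative differences of -0.28 (adjusted p = 4.9e-04) and -0.27 (adjusted p = 5.5e-04). In each of these 5 genes every B cell library lay above every T cell library in relative level.

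**Figure D4:**
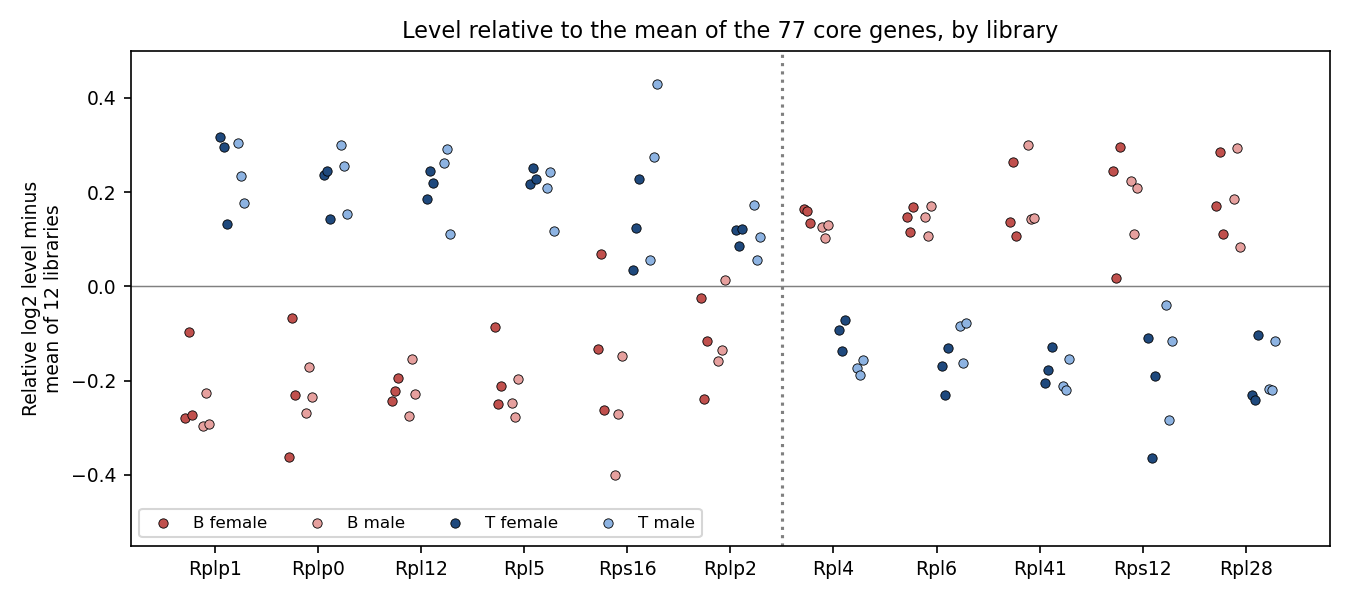
Log2 level of 11 core genes relative to the mean of the 77 core genes, with each gene's mean over 12 libraries subtracted; each point is a library, coloured by group. Left of the dotted line the T cell libraries are higher (Rplp1 by 0.49), right of it the B cell libraries are higher (Rpl28, with a T minus B difference of -0.38).

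Most of the 14 other members were at low levels, and the paralogs did not all follow their core genes. A paralog was compared with its core gene as a percent of it in each library, with a two-sided exact permutation test of 6 against 6 libraries over 7 pairs, whose smallest possible p is 0.00216. With same-numbered female and male libraries counted as 1 unit, that is 3 against 3, the test cannot go below 0.10. Rpl22l1 encodes the paralog of Rpl22, which takes part in T cell development. Rpl22l1 ran from 93.0 to 120.2 in B cells (median 105.7) and from 169.8 to 255.7 in T cells (median 188.4). It was at a median of 20.97% of Rpl22 in B cells and 26.3% in T cells, a 1.24-fold difference (exact permutation p = 0.00866, adjusted p = 0.0101), and the ranges of 19.7% to 22.1% and 21.3% to 29.5% overlapped.

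Rpl36al, the autosomal copy of the X-linked Rpl36a, had a median of 165.0 in B cells against 275.6 in T cells. It was at 33.8% of Rpl36a in B cells and 32.1% in T cells (medians, 0.935-fold, exact permutation p = 0.00649, adjusted p = 0.00909), a small difference with overlapping ranges. The coding sequences of this pair are identical at 87.7% of 318 bases.

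Rpl7l1 and Rps27l were the members tested that were called in neither direction. Rpl7l1, a paralog of the large subunit protein Rpl7, ran from 27.3 to 34.6 in B cells (median 31.3) and from 23.5 to 33.5 in T cells (median 27.1). Its T minus B difference was -0.17 (SE 0.08, limma adjusted p = 0.078). Beside Rpl7, which was called higher in T cells, it was at a median of 3.10% in B cells against 1.47% in T cells, a 0.498-fold difference with separate ranges (exact permutation p = 0.00216, adjusted p = 0.00379). Relative to the family mean, every B cell library lay above every T cell library in 69.6% of tested genes. That share also applies to the separate ranges of Rps27l and Rps4l below.

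Rps27l, the paralog of Rps27 known as a p53 target, ran from 25.4 to 38.9 in B cells (median 33.6) and from 27.9 to 36.4 in T cells (median 30.9), with a T minus B difference of -0.09 (SE 0.10, limma adjusted p = 0.39). It was at a median of 3.74% of Rps27 in B cells and 1.86% in T cells, 0.498-fold, again with separate ranges and the same exact p. Both were called higher in B cells without the 2 libraries of largest total and after rescaling to a total of 1000000 or to the protein-coding total. Median-ratio scaling, or leaving out female B cell 1 or male T cell 6 alone, also put Rpl7l1 among the genes called toward B cells.

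Rps4l, annotated as a transcribed processed pseudogene on chromosome 6, was the 1 member called higher in B cells with the deposited scaling. Its adjusted TPM ran from 2.05 to 2.92 in B cells (median 2.48) and from 0.26 to 0.99 in T cells (median 0.62), with no overlap. The B minus T difference was 1.12 (SE 0.07, limma adjusted p = 8.1e-09). It was at 0.185% of the X-linked core gene Rps4x in B cells and 0.0217% in T cells (medians), with separate ranges (exact permutation p = 0.00216).

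The remaining members that passed the filter were called higher in T cells, like the core genes. Rps3a2, Rps3a3 and Rpl37rt, annotated as processed pseudogenes, had medians of 11.2, 10.5 and 16.7 in B cells, against 24.3, 21.7 and 29.8 in T cells. Rps27rt was at a median of 2.26% of Rps27 in B cells and 2.24% in T cells (exact permutation p = 0.881). Its coding sequence is identical to that of Rps27 over all 252 bases, so reads of the 2 genes cannot be told apart within it, and its values are uncertain. Rpl3l, Rpl10l, Rpl39l, Rps12l1 and Rps12l2 stayed under 1 in every library. Rpl39l, highest at 0.883, had a median of 0.0588 in B cells against 0.696 in T cells, but the deposited bounds of its values differed by a median factor of 6.63.

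**Figure D5:**
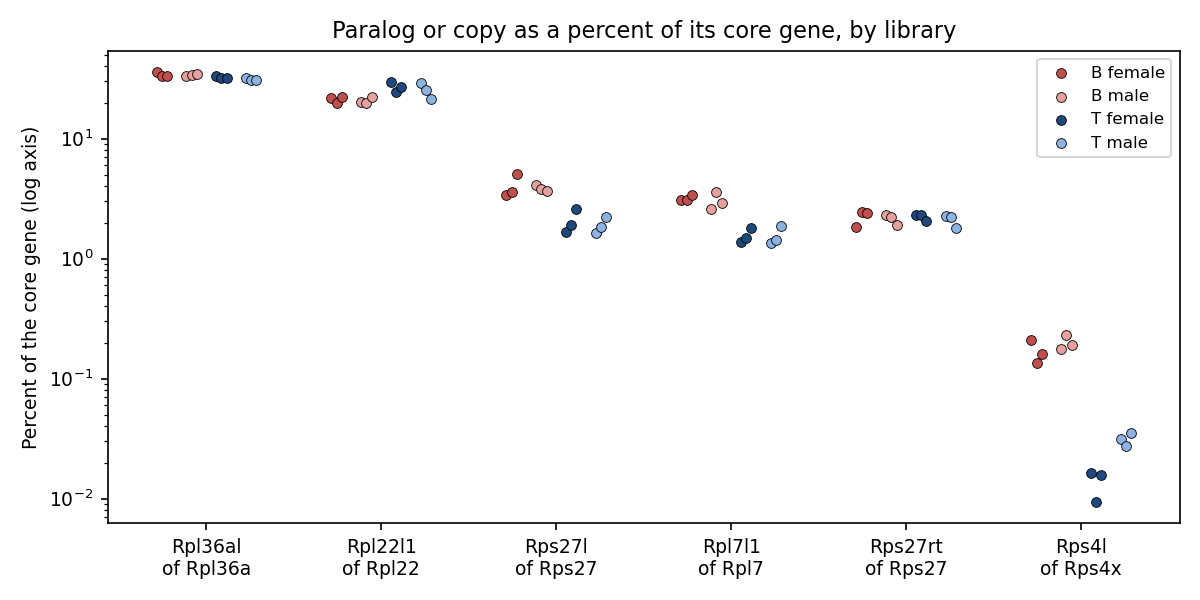
Adjusted TPM of 6 paralogs or copies as a percent of that of their core gene in each library (log axis), coloured by group. Rps27l, Rpl7l1 and Rps4l are lower in T cells without overlap, while Rps27rt stays near 2.24% to 2.26% in the medians of both cell types.

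Named pseudogenes added little to the family. The 246 pseudogenes named after a member summed to 0.938% to 1.15% of the member sum in B cells and 1.08% to 1.19% in T cells. Transcripts of other genes that match a core coding sequence at 95% identity or more over at least 50% of its length summed to a median of 2.54% of the core gene's own level, with the highest value, 39.1%, for Rpl27a. Of the core genes, 30 hold 58 annotated small nucleolar RNA genes within their bounds. Their median T minus B difference was 0.86, against 0.95 for the 47 that hold none.

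No member differed between the sexes past the threshold in either cell type. In B cells, the sum of the members was 61725 ± 7911 in females and 66444 ± 7806 in males, and in T cells it was 119301 ± 19017 in females and 124376 ± 10956 in males (SD, n = 3). The female minus male difference of the core genes had a median of -0.11 in B cells, from -0.20 to 0.06, and of -0.07 in T cells, from -0.19 to 0.002, with a median SE of 0.17. In both cell types 76 of 77 core genes had a value below 0, but none passed the test, and the genes share their libraries. In T cells the sign of the members' median rested on the scaling and on a single library. The median there moved from -0.07 to 0.23 after rescaling to a total of 1000000 and to 0.06 without female T cell 6. In B cells it moved from -0.11 to -0.01 without female B cell 1 and stayed below 0. The limma fit called 0 of 86 members in B cells, 0 in T cells and 0 for the difference of the sex effects, where it called 0.144%, 0.104% and 0% of all tested genes. At an unadjusted p under 0.05 there was 1 member in B cells, 1 in T cells and 0 for the difference. A digit in the labels, of unstated meaning, splits the libraries the way the difference of the sex effects does. Within each cell type it also splits females from males. The digit therefore cannot be told apart from sex within a cell type or from the difference of the sex effects.

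The member behind both was Rps4l. Its adjusted TPM was 2.20 ± 0.16 in female and 2.76 ± 0.16 in male B cells, and 0.37 ± 0.13 in female and 0.86 ± 0.14 in male T cells (SD, n = 3). The female minus male difference on the log2(adjusted TPM + 1) scale was -0.23 in B cells (limma unadjusted p = 0.032, adjusted p = 1.0) and -0.44 in T cells (limma adjusted p = 0.31). Values this low have wide deposited bounds, with a median ratio of 1.92 over the libraries.

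Of the X-linked core genes Rpl10, Rps4x, Rpl36a and Rpl39, none stood apart between the sexes. Rps4x, whose human counterpart escapes X inactivation, was at 1329 ± 194 in female and 1387 ± 147 in male B cells, and at 2692 ± 496 in female and 2769 ± 354 in male T cells (SD, n = 3). The differences of these 4 genes ran from -0.12 to -0.05, each smaller than its SE. Rps16 and Rps27 had the next smallest p in T cells, with female minus male differences of -0.19 (SE 0.14) and -0.18 (SE 0.17), which turned to 0.10 and 0.12 when every library was rescaled to a total of 1000000. Rpl37rt and Rpl36 followed Rps4l in B cells, with -0.39 (SE 0.21) and -0.20 (SE 0.16).

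With the deposited scaling, calls among the other genes of translation were mostly toward T cells, with smaller median differences than the core genes, but this turned for some lists after rescaling to a total of 1000000. Among the ribosomal proteins outside the name rule, Gnb2l1 (RACK1) was called higher in T cells, with a T minus B difference of 0.90 (limma adjusted p = 7.9e-05). Fau, a fusion that carries a small subunit protein, was not called, at 0.26 (limma adjusted p = 0.064).

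Of 34 genes listed as translation factors, 26 were called (76.5%, near the 73% of all tested genes), 25 of them higher in T cells, and the median difference was 0.34. The list also holds Tpt1, Naca and Btf3, which are not initiation or elongation factors and were each called higher in T cells. Tpt1, which has a terminal pyrimidine tract like the ribosomal proteins, was at 2718 ± 239 in B cells and 7651 ± 732 in T cells (SD, n = 6), a difference of 1.49 (limma adjusted p = 2.0e-06). Eef1b2, an exchange factor for elongation factor 1, and Eif3e, a subunit of initiation factor 3, had differences of 1.21 and 1.03, and Eif5b, the factor that joins the subunits, was higher in B cells, at 11.9 ± 0.83 against 9.09 ± 0.68 (SD, n = 6).

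Of 44 ribosome biogenesis genes, 24 were called (54.5%), 23 higher in T cells, with a median of 0.18. Wdr12 and Npm1, both of large subunit assembly, had differences of 0.88 and 0.87, and Nop10, of the H/ACA particles that modify ribosomal RNA, had 0.87. Of the 78 tested genes named for the mitochondrial ribosome, 48 were called (61.5%), 43 toward T cells and 5 toward B cells, with a median of 0.22. This list was made by name and includes a pseudogene, which was not called. Mrpl33, Mrps6 and Mrps5 had the largest differences toward T cells, 1.28, 1.20 and 0.97, and Mrps7, Mrpl43 and Mrpl45 were higher in B cells. Of all tested genes 73% were called, so the share was near it for the translation factors and lower for the other lists. After rescaling to a total of 1000000, 5 translation factors were called (2 toward B cells and 3 toward T cells), 5 biogenesis genes (3 and 2) and 11 mitochondrial ribosomal proteins (8 and 3). The B minus T medians then were 0.04, 0.18 and 0.14, all toward B cells, beside 0.26 for all tested genes.

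Of 10 regulators of ribosomal protein mRNA translation, 6 were called with the deposited scaling (60%, beside 73% of all tested genes), all toward B cells, the direction of 31.4% of tested genes. After rescaling to a total of 1000000, 71.6% of all called genes were higher in B cells, and no count for this list is given on that scale. Eif4ebp1, the translation repressor that mTOR inactivates, was at 8.35 ± 1.09 in B cells and 2.36 ± 0.29 in T cells (SD, n = 6), a B minus T difference of 1.47 (limma adjusted p = 5.8e-09). Larp4, a poly(A)-binding factor, and Tsc2, an inhibitor of mTOR complex 1, had differences of 0.53 and 0.44. The other called genes, Mtor, the kinase gene Rps6kb2 and Tsc1, had 0.30, 0.31 and 0.17 (limma adjusted p = 9.8e-05, 0.0018 and 0.015). The calls toward B cells thus held Mtor itself as well as inhibitors in its pathway. Summed markers of cycling cells were between 22.1 and 48.2 in B cells and between 3.47 and 5.47 in T cells, and their part in these differences was not tested.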

How the data were processed

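The sources name Trim Galore, FastQC, STAR and the mm10 build. The table deposited by the authors holds a signal per gene, the adjusted TPM, as a point estimate with a lower and an upper bound. Which quantifier, adjustment and interval level were used is not given in the sources used here. Values are not read counts, so no count test was run, depth is unknown, and precision was read from the bounds. ERCC spike-ins were not analysed here.

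Groups came from the labels. The members and gene lists were chosen with earlier results of these data known. limma 3.58.1 (R 4.3.3) was fitted to log2(adjusted TPM + 1) of the 12520 genes with at least 1 in at least 3 libraries, with 1 coefficient per group and a variance trend, two-sided, and Benjamini-Hochberg adjustment over all of them at 0.05. The fold scale understates changes of low genes. A second fit centred each library on its mean of the 77 core genes. The fits were tested on simulated data. Named genes were the 8 largest relative changes each way, the stalk, the non-core members, the 4 highest and 4 lowest core genes, the X-linked members, the 3 smallest p per sex contrast and up to 3 called genes per other list and direction. Rpl11, Rpl27a and Yam1 were named after their values were seen, and the results of 2 genes are not reported here. All 91 members matched GENCODE M21, and copies were found with blastn 2.17.0. Paralog ratios used scipy 1.17.1.

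Same-numbered female and male T cell libraries deviated together over the tested genes (r = 0.72, 0.55 and 0.52), while in B cells r was -0.17, -0.04 and -0.34. What the shared numbers stand for is not given in the sources used here. Over the 77 core genes alone r was 0.84, 0.88 and 0.73 in T cells and 0.40, 0.60 and 0.34 in B cells. P-values measure the spread between pools.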

Additional observations from a re-analysis of the deposited data

How the results depend on the processing

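The count of members called between B and T cells was between 83 and 86 under every alternative (pseudocount, filters, variance trend, pseudogenes added, median-ratio and protein-coding scaling, 1 sex alone, without the 2 libraries of largest total, same-numbered libraries averaged) except rescaling to a total of 1000000, which gave 41, of which 38 higher in T cells and 3 in B cells (Rpl7l1, Rps27l and Rps4l). The share of all called genes that were higher in B cells moved from 43.0% to 71.6% with it, to 66.4% with protein-coding scaling and to 50.3% with median-ratio scaling. The same rescaling gave 5 translation factors, 5 biogenesis genes and 11 mitochondrial ribosomal proteins, most of the last 2 lists toward B cells, and a ratio of sums of 1.45, which was 1.56 on the protein-coding total. Its female minus male differences in T cells were 0.10 for Rps16 and 0.12 for Rps27, and the difference of the sex effects of Rps16 became -0.11; none passed the threshold. The cause was not tested.

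Relative to the family, 15 members were called in female libraries alone and 15 in male libraries alone, where fewer samples enter. With no filter on low values, 1 member was called between the sexes in B cells, 2 in T cells and 1 for the difference of the sex effects: Rpl10l, whose levels stay under 0.005, in all 3, and Rps4l in T cells. Leaving out 1 library at a time gave 84 to 85 members between B and T cells, 28 to 36 relative to the family, 0 in each sex comparison and for the difference of the sex effects, ratios of sums from 1.84 to 1.97, 23 to 27 translation factors, 21 to 26 biogenesis genes and 44 to 50 mitochondrial ribosomal proteins. A fit with the replicate number as a block called 0 members in B cells, 0 in T cells and 0 for the difference, so the block changed no call between the sexes. B and T cells share no replicate numbers. With same-numbered female and male libraries averaged, an alternative chosen after seeing the data, 84 members were called between B and T cells, and 24 of 33 relative to the family. Unknown depth leaves members under 1 without a usable comparison.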
